A study of Sus scrofa with 4 samples.

Results

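Copper transporters and copper chaperones were examined in the transcriptomes of mature porcine oocytes. The set was chosen by gene symbol and holds 10 genes, namely SLC31A1 and SLC31A2 for uptake, ATP7A and ATP7B for export, ATOX1 and CCS as chaperones of the cytosol, COX17, COX11 and SCO1 as chaperones of the mitochondrion, and COMMD1 for the trafficking of the exporters. Of these, 8 had values among the 16050 genes with values, and COX11 and SCO1 were not analysed here. Of the 8 genes, 7 had at least 1 FPKM in no fewer than 2 libraries and entered the test with 8541 genes in all, while ATP7A did not and was fitted without this filter. FPKM is the number of fragments scaled to transcript length and library size, so levels of different genes can be compared with each other.

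The oocytes were female germ cells at metaphase II, the stage at which a mature egg waits for fertilization. They were taken from slaughterhouse ovaries as cumulus-oocyte complexes and matured in vitro, for which the methods give 42 to 44 h. The Control group received no added Cu. The Cu group received copper sulfate in the maturation medium, at the 25 μg/mL which the methods name for the work after the dose series. Both groups shared the same medium with follicular fluid, EGF, insulin and gonadotropins. Each library came from a pool of 3 oocytes whose transcripts were amplified by Smart-seq2, a full-length method for very small samples that starts from the poly(A) tail. The libraries with values were Control 1, Control 2, Cu 1 and Cu 3, and values of the Control pair are given in this order. The labels do not say whether they came from separate cultures or animals, so p-values measure only the spread between these pools. The names of the groups rest on the labels alone and are open to doubt. If they were exchanged, every direction given here would turn.

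Copper is needed by a few enzymes and is toxic when free, so cells pass it from protein to protein. SLC31A1, also called CTR1, carries reduced copper across the plasma membrane, and its relative SLC31A2, or CTR2, sits mainly on endosomes and lysosomes. Inside the cell ATOX1 brings copper to the pumps ATP7A and ATP7B, which load secreted enzymes in the Golgi and export the excess, CCS brings it to the superoxide dismutase SOD1, and COX17 hands it in the mitochondrial intermembrane space to SCO1 and COX11 for cytochrome c oxidase. COMMD1 helps to sort and stabilise the pumps.

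The libraries carried the transcripts of oocytes. The oocyte list, with ZP3, GDF9, BMP15 and OOEP among its 11 genes with values, summed to between 7534 and 10973 FPKM in the 4 libraries. Not all were abundant, as NLRP5 had between 1.88 and 8.70 FPKM. Of the 15 genes on the list of cumulus and granulosa cells, 9 had values, and these summed to between 1.05 and 2.66 FPKM. Their highest value was 1.43 FPKM, of VCAN in Control 2. AMH was at 0 in every library, and PTX3 and CYP19A1 were at no more than 0.1 FPKM. PTPRC, the only blood cell marker with values, had between 0.09 and 0.32 FPKM. FPKM keeps no read number, so the depth of the libraries is unknown. Cu 1 stood apart from the others, with 9364 genes at 1 FPKM or more against 7923 to 8162. It held the highest value of 6 of the 8 copper genes, while Cu 3 held that of the others. On log2(FPKM + 1), the Pearson correlation of Cu 3 was 0.959 with Control 1 and 0.965 with Control 2, but 0.923 with Cu 1. Cu 1 was at 0.921 and 0.918 with Control 1 and 2. The libraries thus did not group by treatment. The part of Cu 1 in the differences between groups was not tested beyond leaving it out. In bulk pools a difference in FPKM cannot be told apart from a change in the amount of the other transcripts of the oocyte.

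In untreated oocytes, 3 of the 8 transcripts were abundant and the rest were scarce. SLC31A2 had a mean of 157 FPKM in the Control libraries, COX17 had 88.8 and ATOX1 had 73.0, followed by COMMD1 with 5.55, ATP7B with 1.83, CCS with 1.48, SLC31A1 with 0.79 and ATP7A with 0.59 FPKM. The values of ATOX1 lay above those of COMMD1 in both libraries, and those of COMMD1 above those of ATP7B. The ranges of all other neighbours in this order overlapped, but SLC31A2 lay above ATOX1 without overlap, and ATP7B above SLC31A1 and ATP7A. In the Cu libraries COX17 came first with 500.5 FPKM, but its range overlapped that of SLC31A2, and only ATOX1 and COMMD1 were separated as neighbours.

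**Figure D1:**
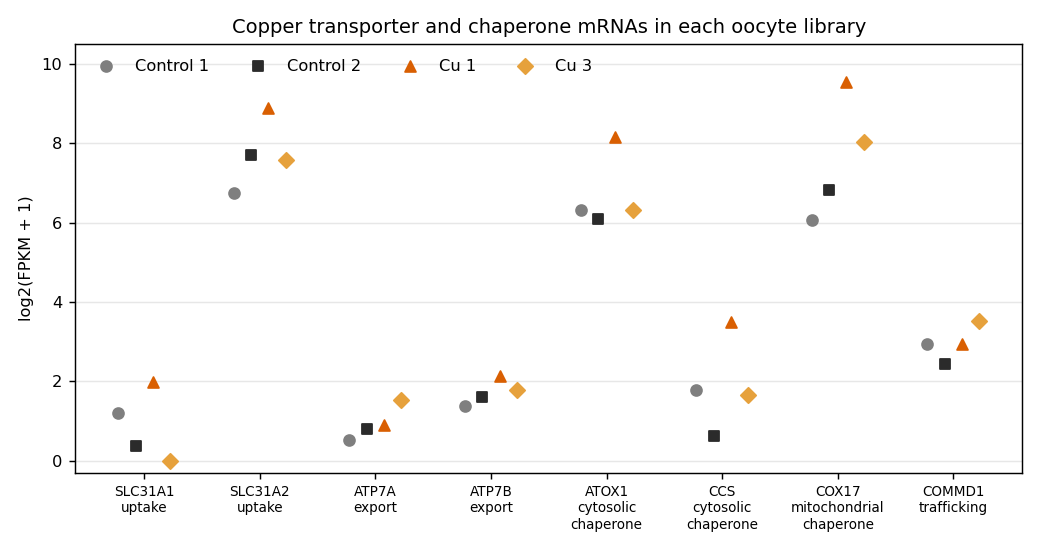
Levels of the 8 genes in each library, as log2(FPKM + 1) on the vertical axis, with 1 point per library and the route of each gene below its name. COX17 in Cu 1 and Cu 3 lies above both Control libraries, whereas for ATOX1 only Cu 1 stands above and Cu 3 falls among the Control libraries.

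The uptake genes differed widely in level, and neither was separated between the groups. SLC31A1, the high-affinity importer (gene ID 397186, chromosome 1, bases 253868389 to 253893135 of Sscrofa11.1), measured 1.29 FPKM in Control 1 and 0.29 in Control 2, against 2.95 in Cu 1, and was listed at 0 in Cu 3. The Cu libraries thus held both the highest and the lowest value of this scarce transcript. Its log2 fold change, computed like all others here as Cu minus Control on log2(FPKM + 1), was 0.21 (standard error 0.69, with an adjusted p of 0.954 from limma). The direction was not stable, as it was -0.78 without Cu 1 and 1.20 without Cu 3, and negative with a smaller number added before the log.

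SLC31A2, the endosomal relative, lies 63101 bases from SLC31A1 on the same chromosome (gene ID 100514386, bases 253795005 to 253805287) and was the most abundant of the set in the Control group. It measured 106 and 208 FPKM in the Control pair against 469.7 in Cu 1 and 189 in Cu 3. Cu 1 was highest, and Cu 3 fell between the Control libraries. The log2 fold change was 1.0 (standard error 0.54, with an adjusted p of 0.728 from limma), which fell to 0.34 without Cu 1 and rose to 1.65 without Cu 3. Within each library SLC31A2 outnumbered its neighbour by far. The ratio of the FPKM was 82.1 and 718 in the Control pair and 159 in Cu 1, and had no finite value in Cu 3.

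The exporters were scarce in all libraries and, in the deposited FPKM, lay higher in both Cu libraries by small amounts. ATP7A, the pump that most cells outside the liver use (gene ID 397159, chromosome X, bases 61972544 to 62110058), measured 0.43 and 0.75 FPKM in the Control pair against 0.86 and 1.89 in Cu 1 and Cu 3. The groups did not overlap, but Cu 1 was only just above Control 2. Divided by the median-of-ratios factors of the libraries, 1.30 for Cu 1 and 0.97 for Control 2, Cu 1 would lie below Control 2. Fitted without the filter on low values, its log2 fold change was 0.55 (standard error 0.35, with an adjusted p of 0.818 from limma). ATP7A is the 1 gene of the set whose percentile, the share of all genes with a lower value in the same library, was lower in Cu 1 (39.7) than in either Control library (41.5 and 46.0), although its FPKM was higher there. With 0.1 or 0.01 added to the values in place of 1, its log2 fold change was 1.04 or 1.15.

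ATP7B, the pump best known from liver (gene ID 100049684, chromosome 11, bases 15892549 to 15942070), measured 1.6 and 2.05 FPKM in the Control pair against 3.41 and 2.41 in Cu 1 and Cu 3. The Cu pair lay wholly above the Control pair. The log2 fold change was 0.46 (standard error 0.36, with an adjusted p of 0.790 from limma), with 0.28 without Cu 1 and 0.65 without Cu 3. Its percentile was 55.7 and 57.3 in the Control libraries and 57.5 and 59.5 in the Cu libraries, a shift of few places in rank. The ratio of ATP7B to ATP7A was 3.72 and 2.73 in Control 1 and 2, 3.97 in Cu 1 and 1.28 in Cu 3, and the Cu libraries lay on both sides of the Control libraries.

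The chaperones of the cytosol were high in Cu 1 only. ATOX1, the carrier for the pumps (gene ID 100312962, chromosome 16, bases 71299321 to 71314598), had 79.0 and 67.1 FPKM in Control 1 and 2, 285 FPKM in Cu 1 and 78.4 FPKM in Cu 3. Cu 3 was thus within the Control range, and Cu 1 was 3.91 times the Control mean. The log2 fold change was 1.03 (standard error 0.60, with an adjusted p of 0.748 from limma), and without Cu 1 it was 0.11.

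CCS, the chaperone of SOD1 (gene ID 414913, chromosome 2, bases 5819471 to 5833263), showed the same order at a far lower level. It had 2.42 and 0.54 FPKM in Control 1 and 2, 10.3 FPKM in Cu 1 and 2.17 FPKM in Cu 3. Its log2 fold change was 1.38 (standard error 0.71, with an adjusted p of 0.725 from limma), 0.47 without Cu 1 and 2.30 without Cu 3. The target of CCS, SOD1, was singled out for this role and measured 637 and 599 FPKM in the Control pair against 630 and 866 in Cu 1 and Cu 3. In Cu 1, where CCS was highest, SOD1 stayed within the Control range.

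COX17, the first copper chaperone of the mitochondrion, showed the largest log2 fold change of the 8 genes over the 4 libraries, and it was the only one of the 7 tested with an unadjusted p of 0.05 or less. The gene lies on chromosome 13 (gene ID 100156799, bases 140584286 to 140594636). It measured 65.5 and 112 FPKM in the Control pair against 742 and 259 in Cu 1 and Cu 3. The libraries labelled Cu stood wholly above those labelled Control, at 8.36 and 2.91 times the Control mean, and its percentile rose from 93.1 and 95.5 to 99.2 and 97.7. The log2 fold change was 2.34 (standard error 0.55, 95% confidence interval 0.98 to 3.70). In limma's test the unadjusted p was 0.0055 and the adjusted p over all tested genes was 0.631, so COX17 did not pass the correction. Scaling the libraries by median of ratios or by quantiles gave 2.09 and 2.22.

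The size of the COX17 difference rested on which libraries were used. The log2 fold change was 1.58 without Cu 1 and 3.10 without Cu 3, and 1.96 and 2.72 without Control 1 and Control 2. The authors' mean FPKM of the groups was 180 for Control and 431 for Cu, a log2 difference of 1.25, which is below that of CCS by the same means, 1.34. The authors' Control mean lay above both Control libraries given here, which was also seen for ATOX1 (81.7) and COMMD1 (7.91). As the authors' means are over 3 libraries, the Control mean of COX17 requires a further Control value above Cu 3, so that the separation of the groups holds for the 4 libraries only.

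COMMD1, which acts on the sorting of the pumps (gene ID 100521368, chromosome 3, bases 79770315 to 79913969), measured 6.67 and 4.43 FPKM in the Control pair against 6.64 and 10.6 in Cu 1 and Cu 3. Cu 1 was between the Control libraries and Cu 3 was highest, as it was for ATP7A but for no other gene of the set. The log2 fold change was 0.54 (standard error 0.41, with an adjusted p of 0.789 from limma). By the authors' means, 7.91 FPKM for Control and 7.76 for Cu, it was -0.024.

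**Figure D2:**
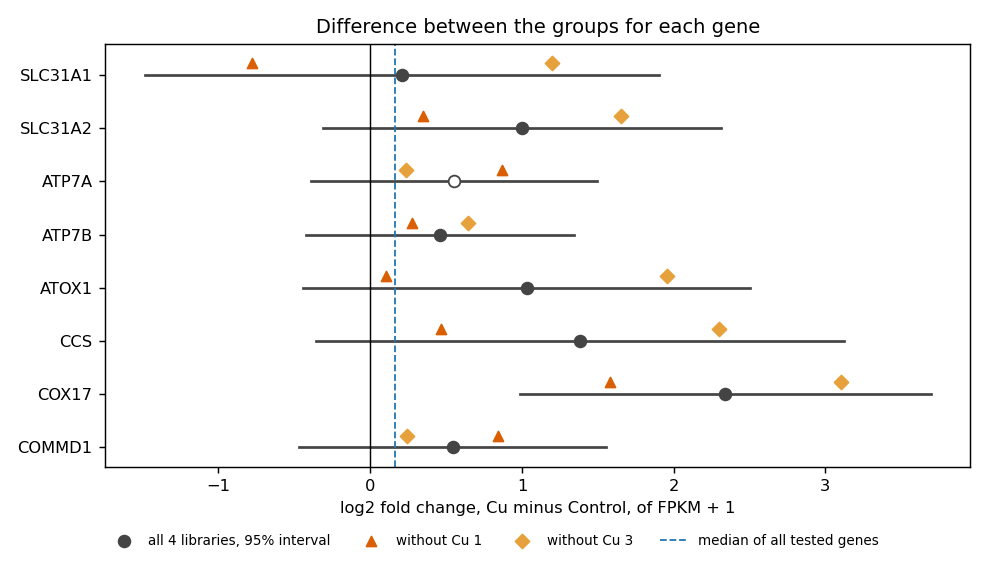
Log2 fold change of each gene on the horizontal axis (Cu minus Control, on log2(FPKM + 1)), with filled circles and lines for the estimate and 95% confidence interval from all 4 libraries, an open circle for ATP7A, which was fitted without the filter, and triangles and diamonds for the fits without Cu 1 and without Cu 3. COX17 is the only gene whose interval, 0.98 to 3.70, lies above 0, and the dashed line marks the median of all tested genes at 0.16.

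Counts over the set were read beside those over all tested genes. The log2 fold changes of all 7 tested genes were above 0, as were 64.3% of those of all tested genes, with a median of 1.0 beside 0.16, but after quantile normalization SLC31A1 was at -0.023 and 6 of 7 were above 0. With ATP7A, fitted without the filter, the median of the 8 genes was 0.78, and it was 0.41 without Cu 1 and 1.43 without Cu 3. In limma's test an adjusted p up to 0.05 was reached by 0 of the 7 tested genes and by 0% of all tested genes, and an unadjusted p of 0.05 or less by 1 of 7, beside 7.01% of all genes. Neither Cu library overlapped the Control pair, on the higher side, in 2 of the 7 tested genes, COX17 and ATP7B, beside 25.4% of all genes, and on the lower side in 0 of 7, beside 13.4%. Without the filter on low values ATP7A joined them, 3 of 8 genes beside 22.5%. With the further value that the authors' mean over 3 libraries requires in each group, 0 of these 3 genes stayed separate. The 95% interval of 6 of the 7 tested genes held 0, and these intervals were wide enough to hold log2 differences of over 1 for each of the 6.

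The share of all genes that were higher depended on the scaling of the libraries. The deposited FPKM gave a median log2 fold change of 0.16 over all tested genes, which became -0.049 after quantile normalization and -0.042 after median-of-ratios scaling. The genes higher in both Cu libraries were then 16.7% and 17.1% of all tested genes, and the genes lower in both were 22.8% and 22.0%. Among the 7 tested members, which leave out ATP7A, the number stayed at 2 higher and 0 lower under either scaling. The calls in limma's test changed when a Cu library was left out, with the remaining Cu library assumed to vary as the Control libraries do. Cu 1 against the Control libraries gave an adjusted p of 0.05 or less for 4 of 7 members, ATOX1, CCS, SLC31A2 and COX17, beside 20.5% of all genes. Cu 3 against the Control libraries did so for COX17 alone (adjusted p = 0.0224 in limma's test), beside 2.18% of all genes.

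To compare the routes within a library, the FPKM of the genes of each route were summed. The sum of all 8 genes was 263 and 395 FPKM in the Control pair against 1522 and 543 in Cu 1 and Cu 3. Uptake, almost entirely SLC31A2, made up 40.8% and 52.7% of this sum in Control 1 and 2 and 31.1% and 34.8% in Cu 1 and 3. COX17, the only mitochondrial chaperone with values, made up 24.9% and 28.3% in the Control libraries and 48.8% and 47.6% in the Cu libraries. The chaperones of the cytosol made up 31.0% and 17.1% in the Control libraries and 19.4% and 14.8% in the Cu libraries. Export stayed under 0.8% in every library. In both Cu libraries the share of COX17 was above, and that of uptake below, both Control libraries. This holds for these 4 libraries only, as the authors' Control mean of COX17 requires a further Control value above Cu 3.

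**Figure D3:**
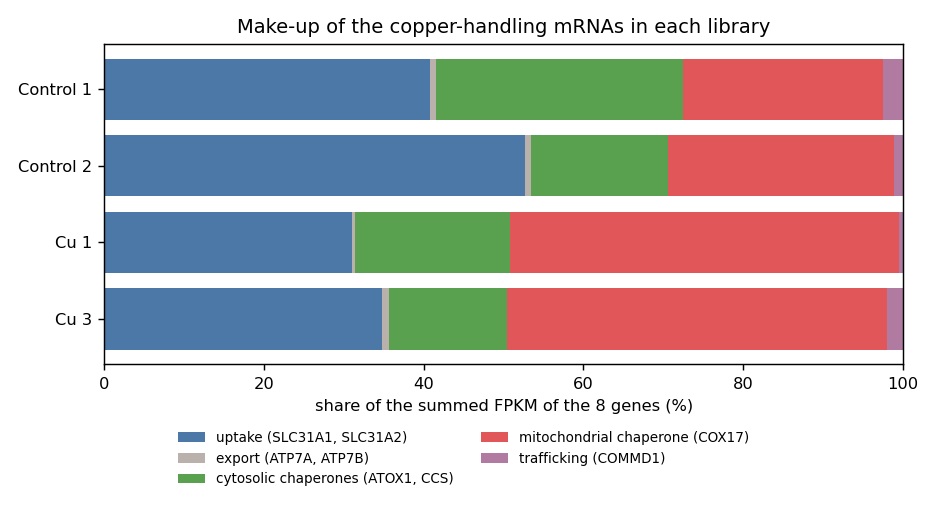
Share of each route in the summed FPKM of the 8 genes, in percent on the horizontal axis, with 1 bar per library. COX17 takes 48.8% and 47.6% of the bars of Cu 1 and Cu 3 against 24.9% and 28.3% in Control 1 and 2.

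Of the 7 ratios examined, that of COX17 to uptake moved least when a library was left out. It was 0.612 and 0.537 in Control 1 and 2 and 1.57 and 1.37 in Cu 1 and 3, so that COX17 was the scarcer transcript in these Control libraries and the more abundant one in these Cu libraries. On the log2 scale the mean was -0.80 ± 0.13 (SD) in Control and 0.55 ± 0.14 (SD) in Cu, a difference of 1.35, which lay between 1.25 and 1.45 with each library left out. The exact two-sided permutation test gave p = 0.333, the smallest p that 2 libraries against 2 can give, and 0.933 after adjustment over the 7 ratios, so no ratio can pass 0.05 in this design. By the authors' means the ratio was 1.17 in Control and 1.37 in Cu, a log2 difference of 0.23 only. The direction was the same, but the Control side was far higher than in either Control library, and with the further values that the means require the groups overlapped.

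The ratio of COX17 to the chaperones of the cytosol was separated in the same direction. It was 0.805 and 1.66 in Control 1 and 2 and 2.51 and 3.21 in Cu 1 and 3, a log2 difference of 1.29 with the same exact permutation p of 0.333, and of 0.37 by the authors' means, whose further values again made the groups overlap. The other 5 ratios overlapped between the groups. The chaperones of the cytosol to uptake gave 0.759 and 0.324 in the Control libraries and 0.625 and 0.426 in the Cu libraries, which lay inside the Control range. Export to uptake was 0.0189 and 0.0134 for the Control pair against 0.00903 for Cu 1 and 0.0228 for Cu 3, and COMMD1 to uptake was 0.0622 and 0.0212, then 0.0140 and 0.0560. For both ratios Cu 1 was lowest. Cu 3 was highest for export by these ratios, and between the Control libraries for COMMD1. Computed on FPKM + 1, the log2 ratio of export to uptake was -5.158 in Control 1, just above -5.163 in Cu 3.

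**Figure D4:**
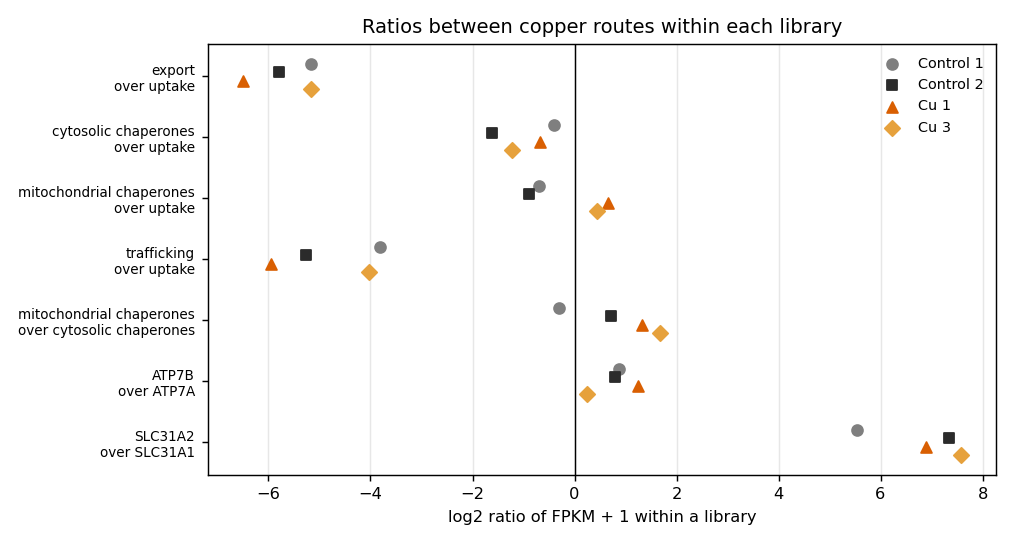
Log2 ratios between routes or genes within each library, computed on FPKM + 1, with 1 point per library. The ratio of the mitochondrial chaperone COX17 to uptake is near -0.80 in the Control libraries and near 0.55 in the Cu libraries. The spread is small between the libraries shown of either group, but the authors' means require a further Control ratio above both Cu libraries. The ratios of export and of trafficking to uptake are spread over both groups.

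Among the sums, export was 2.03 and 2.80 FPKM in the Control pair against 4.27 and 4.30 in Cu 1 and Cu 3, a log2 difference of 0.64. Export and COX17 were the only sums without overlap, and 0 of these 2 stayed so with the further values required by the authors' means. The exact permutation p was 0.333 for both, and 0.667 after adjustment over the 5 routes. Within the export sum ATP7B was higher in Cu 1 and ATP7A in Cu 3. The log2 differences of uptake, the chaperones of the cytosol and COMMD1 were 0.99, 1.05 and 0.54, with overlapping groups.

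Other genes of copper handling were set beside the 8. Of 39 tested genes on 7 lists, an adjusted p of 0.05 or less was reached by 0 and an unadjusted p of 0.05 or less by 5, or 12.8%, in limma's test. The Cu pair stood wholly above the Control pair in 14, or 35.9%, and below in 2, and the median log2 fold change was 0.30. Of all tested genes, 7.01% had such an unadjusted p, 25.4% stood above and 13.4% below, and the median was 0.16. The further values that the authors' means require were not counted over all of these lists.

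In the mitochondrial copper relay around COX17, 4 of the 4 tested genes had a log2 fold change above 0, beside 64.3% of all tested genes. Their median was 1.0, beside 0.16. Higher in both Cu libraries were 3 of the 4, beside 25.4% of all tested genes. After quantile normalization or median-of-ratios scaling 2 of the 4 were, beside 16.7% and 17.1%. By the authors' means over 3 libraries, CMC1, CHCHD7 and CMC2, the 3 separated genes, each require a further Control value above Cu 3. Their separation thus holds for the 4 libraries only. For CMC1 the authors' mean FPKM was 523 for Control and 623 for Cu. CMC1, a twin-cysteine protein of cytochrome c oxidase assembly, was the only gene of the list with an unadjusted p of 0.05 or less. It measured 420 and 379 FPKM in the Control pair against 691 and 697 in Cu 1 and Cu 3, giving a log2 fold change of 0.80 (standard error 0.24, unadjusted p = 0.0168 in limma's test). CHCHD7, the mammalian counterpart of yeast Cox23, had the highest log2 fold change of the list with 1.15, from 38.5 and 15.6 FPKM in Control 1 and 2 to 77.97 and 39.7 FPKM in Cu 1 and 3, and Cu 3 was only just above Control 1. SCO2, the relative of SCO1, had no more than 0.33 FPKM in any library and was not tested.

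Other assembly factors of cytochrome c oxidase lay on both sides of 0. Of 5 tested, 3 were higher in both Cu libraries, beside 25.4% of all tested genes. By limma, 2 of them reached an unadjusted p up to 0.05, beside 7.01% of all tested genes. With the libraries scaled by quantiles or by median of ratios, only 2 stayed higher in both, beside 16.7% and 17.1%. PET100 measured 2.36 and 2.06 FPKM in the Control pair against 31.6 and 5.02 in Cu 1 and Cu 3, giving a log2 fold change of 2.13 (unadjusted p = 0.0354 in limma's test). APOPT1, also called COA8, measured 1.02 and 6.80 FPKM in the Control pair against 12.3 and 12.9 in Cu 1 and Cu 3, giving a log2 fold change of 1.78 (unadjusted p = 0.0363 in limma's test). LRPPRC, a factor of mitochondrial mRNA stability, had the lowest value with -0.097. PET100 was thus far higher in Cu 1 than in Cu 3, whereas the values of APOPT1 in both were close.

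The family and partners of COMMD1 mostly overlapped between the groups. The 13 tested genes are members of the COMMD family, their partner CCDC93 and subunits of the retriever complex. Together they act in the recycling of cargo such as the copper pumps from endosomes. Of the 13, 3 were higher in both Cu libraries, or 23.1% beside 25.4% of all tested genes. Lower in both was 1, beside 13.4%. VPS29, a subunit shared by retriever and retromer, measured 127 and 137 FPKM in the Control pair against 373 and 299.8 in Cu 1 and Cu 3, giving a log2 fold change of 1.34 (standard error 0.27, unadjusted p = 0.0027 in limma's test). COMMD4 measured 2.62 and 0.52 FPKM in the Control pair against 11.6 and 4.02 in Cu 1 and Cu 3, giving a log2 fold change of 1.76 (unadjusted p = 0.0314 in limma's test). VPS35L, another retriever subunit, was lowest of the list with a log2 fold change of -0.25.

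Among copper enzymes, reductases and other copper-binding proteins, the groups mostly overlapped. Of the 13 copper enzymes with values, 3 were tested, with log2 fold changes from -0.073 for LOXL2 to 0.31 for TYR, and 1 was higher in both Cu libraries, or 0 after quantile normalization or median-of-ratios scaling. The tested reductases and the metal carrier SLC11A2 ranged from -0.065 for SLC11A2 to 0.64 for STEAP1, a metalloreductase family member that was the only one of 3 separated. Of 6 other copper binders, CUTA had the highest log2 fold change with 1.06 and XIAP the lowest with 0.10, and 1 was separated, or 0 after median-of-ratios scaling. Over all tested genes 25.4% were higher in both Cu libraries. By limma, no tested gene of these lists had an unadjusted p up to 0.05.

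Metallothioneins, which bind excess copper and zinc and are classic targets of the metal sensor MTF1, lay on both sides of 0. MT-2B, more abundant than the metallothioneins on the list, was not on it and was added after its values were seen. It measured 1512 and 1238 FPKM in the Control pair against 2829.8 and 2816 in Cu 1 and Cu 3, giving a log2 fold change of 1.04 (standard error 0.23, unadjusted p = 0.0044 and adjusted p = 0.631 in limma's test). Of the 5 tested genes of the list of metal-responsive genes, 2 were higher and 1 was lower in both Cu libraries. These counts stand beside 25.4% and 13.4% of all tested genes. MT1A measured 5.97 and 7.0 FPKM in the Control pair against 3.31 and 4.44 in Cu 1 and Cu 3, giving a log2 fold change of -0.62, while MT3 measured 8.10 and 1.91 FPKM in the Control pair against 19.6 and 9.87 in Cu 1 and Cu 3, giving a log2 fold change of 1.54. MT1A and MT3 had no unadjusted p of 0.05 or less (0.14 and 0.0541 in limma's test). Metallothioneins are near-identical in sequence, and how reads were assigned among the copies is not known.

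**Figure D5:**
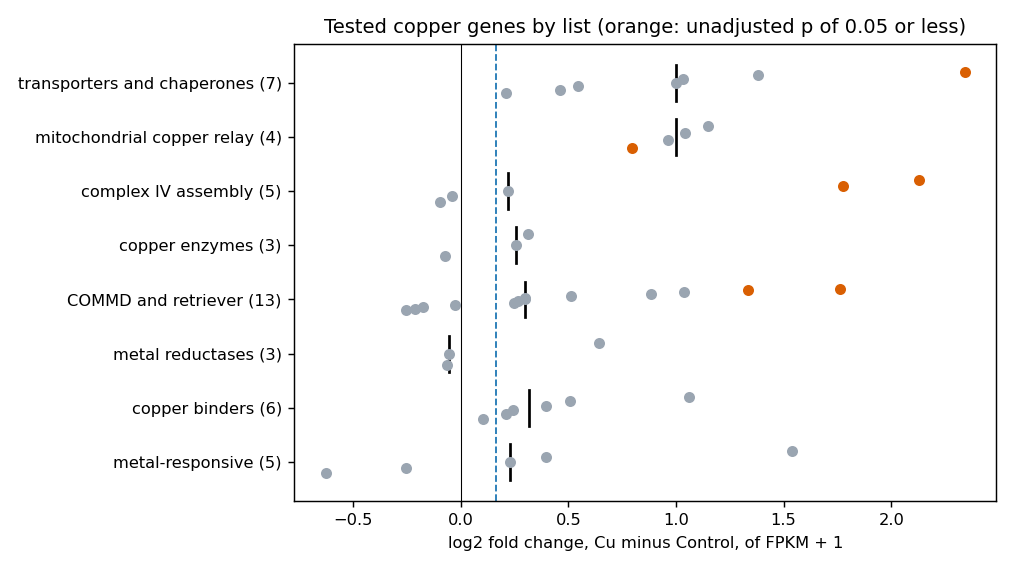
Log2 fold changes (Cu minus Control, on log2(FPKM + 1)) of the tested genes of each list, with 1 point per gene, the number of tested genes in brackets, a black bar at the list's median and a dashed line at the median of all tested genes, 0.16. The points of the mitochondrial copper relay lie between 0.80 and 1.15, and the 6 orange points, all to the right, are COX17, CMC1, PET100, APOPT1, COMMD4 and VPS29.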

How the data were processed

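RNA of 4 pools of 3 oocytes was sequenced after Smart-seq2 amplification, and the titles gave each library its group and number. Dose, culture time and pool size come from the study's methods, which describe 3 sets per group. The authors deposited FPKM rounded to 2 decimals, and a mean FPKM per group, which has the decimals of a mean over 3 libraries and was used only as the authors' mean. The methods name HISAT2, Bowtie2 and RSEM, whereas the submitters' processing notes name TopHat2 2.0.13 and Cufflinks 2.2.1 with Sscrofa11.1, so which tools made the values is open. Gene positions are those of RefSeq for Sscrofa11.1, matched by gene identifier for all 16050 genes.

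FPKM are not counts, so the count test of the study was not run. Genes at or above 1 FPKM in no fewer than 2 libraries were compared on log2(FPKM + 1) with limma 3.58.1 in R 4.3.3 (eBayes with a variance trend, Benjamini-Hochberg adjustment over 8541 genes), and the fitting was tested on simulated data. The added 1 makes fold changes of scarce genes smaller. Route sums and ratios were compared by exact permutation tests over libraries. Members and gene lists were chosen with earlier results of these data known. All members were named, and from each other copper list, but not from the marker lists, the genes with the highest and lowest fold change and those with an unadjusted p of 0.05 or less. Genes without values were not analysed here. The names of the groups are those of the labels, no measured gene served to check them, and they are open to doubt. Alternatives were other pseudocounts, filters and scalings, no variance trend and leaving out each library. A comparison of the authors' means was chosen after seeing the data.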

Additional observations from a re-analysis of the deposited data

How the results depend on the processing

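No paired analysis was possible because the groups share only 1 replicate number. Over the fits that omit a single library, limma called 0 to 4 members at an adjusted p of 0.05, and 1 to 5 had an unadjusted p of 0.05 or less, 3 to 6 were higher without overlap and 0 to 1 lower, where a group of 1 library overlaps less by construction. The other copper genes at an unadjusted p of 0.05 were 2 to 17, the median log2 fold change of the members was 0.41 to 1.43, and SLC31A1 was -0.78 to 1.20. Of all 8541 tested genes, 3005 to 4966 were higher without overlap in these fits and 1669 to 3168 lower. Their median log2 fold change was 0.0023 to 0.31. A group of 1 library has no spread of its own, so the counts by p in these fits decide nothing about the members. Over the same fits the log2 difference was -1.02 to 0.31 for export over uptake, -0.55 to 0.66 for the chaperones of the cytosol over uptake, -1.41 to 0.51 for COMMD1 over uptake, -0.59 to 0.41 for ATP7B over ATP7A and -0.11 to 1.69 for SLC31A2 over SLC31A1, so none of these 5 kept its direction. SLC31A1 also turned to -0.41 and -1.86 with 0.1 and 0.01 added to FPKM in place of 1, as its 0 in Cu 3 then weighs more, and to -0.023 after quantile normalization. With the authors' means, added after the data had been seen, COMMD1 was -0.024, both as a gene and as a route, and the chaperones of the cytosol over uptake were -0.14. With the further value required by these means over 3 libraries added to each group, likewise after the data had been seen, 0 of the tested members were higher without overlap. Without the filter ATP7A was added to the members higher without overlap, and 3 of 8 were. Pseudocounts, scalings and the variance setting left the members called at an adjusted p at 0 and turned no member other than SLC31A1, and the ratio of COX17 to uptake kept its direction with other pseudocounts, with each library left out and with the authors' means. Filters, scalings and the variance setting were not run for it. Of the other lists, quantile normalization took the copper enzymes higher without overlap from 1 to 0 and the metal-responsive genes from 2 to 1. Median-of-ratios scaling took the copper enzymes and the copper binders from 1 to 0. Either scaling took the mitochondrial copper relay and the assembly factors of cytochrome c oxidase from 3 to 2. Without the filter, the genes higher without overlap were 3 copper enzymes, 2 reductases, 3 copper binders and 4 of these assembly factors. How precisely scarce genes such as ATP7A and SLC31A1 were measured is not known, because the depth is unknown.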
